A study of Homo sapiens with 15 samples.

Results

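The 10 genes described here code for the enzymes that remove superoxide and hydrogen peroxide: the superoxide dismutases SOD1, SOD2 and SOD3, catalase (CAT) and the peroxiredoxins PRDX1 to PRDX6. They were taken by gene symbol from the 43388 genes counted in each library. RNA was sequenced from A549 cells, a line derived from a human lung adenocarcinoma, following exposure to hyperoxia (95% oxygen) or normoxia (21% oxygen) for 72 hours. At each oxygen level, 3 libraries came from cells given 1e-05 mM all-trans retinoic acid (ATRA, a vitamin A metabolite that acts through nuclear receptors), 2 from cells given only its solvent, ethanol (vehicle), and 2 from cells given neither (no vehicle). All groups are wild-type cells of this single line, and the labels do not say whether libraries of a group came from separate cultures, so p-values measure only the spread between these libraries. A further library has conflicting labels and entered no comparison.

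Superoxide dismutases convert superoxide into hydrogen peroxide, and each works in its own compartment: SOD1, a copper and zinc enzyme, mainly in the cytosol, SOD2, a manganese enzyme, in the mitochondrial matrix, and SOD3 outside the cell. Catalase, held in peroxisomes, breaks hydrogen peroxide down to water and oxygen. Peroxiredoxins reduce peroxides with a reactive cysteine that is oxidised in each cycle. Thioredoxin then restores most of them, while PRDX6 relies on glutathione. In the lung these enzymes meet oxygen at higher pressure than in most tissues, and oxygen therapy raises that load further.

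Counts assigned to genes ranged from 2642377 to 5605072 per library, and levels are given as CPM, normalized counts scaled to a common library size. At these depths 3 counts correspond to 0.530 to 1.15 CPM. The no vehicle hyperoxia library 1 stood apart, with 12657 genes having a count, the lowest number in the series, against at most 20108 elsewhere. All 6 epithelial markers checked passed the count filter, though EPCAM averaged at most 4.74 CPM in any group. Their summed level was 3317 to 7001 CPM in hyperoxia and 7221 to 11879 CPM in normoxia. Apart from KRT7, each had lower group means in hyperoxia with vehicle, with ATRA and with neither agent. KRT7 averaged 2693 CPM in hyperoxia against 1999 CPM in normoxia with ATRA, and 1965 against 1606 CPM with neither agent. With vehicle KRT7 averaged 1671 against 1791 CPM. Of the 7 alveolar type II markers only 1 passed the count filter, and SFTPA1 and SFTPA2 had no count in any library. The summed level was 105 to 155 CPM in hyperoxia against 50.1 to 93.4 CPM in normoxia. Nearly all of that sum came from a single gene, ABCA3. SFTPB, SFTPC, SFTPD and NAPSA averaged at most 1.72 CPM in any group. The higher sum in hyperoxia is therefore that of ABCA3 and not of the marker set as a whole. CD3E (leukocyte) and VWF (endothelial) had no count. Summed marker levels in hyperoxia and normoxia were 2.52 to 31.6 and 0.624 to 4.17 CPM for leukocytes, 0 and 0 to 6.26 CPM for endothelium, and 0 to 4.97 and 1.56 to 12.9 CPM for fibroblasts. The part of these shifts in the results was not tested. In such bulk RNA, fewer cells of a kind and less RNA per cell cannot be told apart.

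The filter that removes genes with low counts kept 8 of the 10. SOD3 had no count in any of the 14 libraries with a group, which allows a level of up to 0.530 to 1.15 CPM in a library, counting error only. PRDX2, a cytosolic peroxiredoxin, had 15 counts in all. It was at 0 in 8 libraries and between 1 and 6 counts in the other 6. Whether PRDX2 reads were lost in the counting cannot be told from the deposited values, so neither gene was tested.

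PRDX1 and PRDX4 were lower in hyperoxia in all 3 culture conditions, and PRDX1 alone was lower with ATRA at both oxygen levels. The PRDX1 calls with neither agent and with ATRA in normoxia were lost in several other fits of the same libraries. SOD1 and PRDX3 fell in hyperoxia with vehicle. The PRDX3 call was lost whichever vehicle library was left out, and the SOD1 call in most such fits. With vehicle, the calls of SOD1, PRDX3 and PRDX4 were also lost in a fit of all 14 libraries. Some fits leaving out a library also lost PRDX1 with vehicle, PRDX1 for ATRA against vehicle in hyperoxia, and PRDX4 with neither agent. None of the 8 genes passed the main test for a rise in any comparison, though SOD2 passed it with vehicle in 2 other fits. The promoter letters of PRDX4, with the largest fall, and of PRDX3, the mitochondrial member that fell with vehicle, are shown first. They are the 250 bases before the annotated start in RefSeq (GRCh38.p14), written 5′ to 3′ on the strand of the gene, PRDX4 on the plus strand at chrX:23667243-23667492 and PRDX3 on the minus strand at chr10:119178813-119179062. Capitals mark the retinoid receptor half-site AGGTCA where it occurs.
PRDX4: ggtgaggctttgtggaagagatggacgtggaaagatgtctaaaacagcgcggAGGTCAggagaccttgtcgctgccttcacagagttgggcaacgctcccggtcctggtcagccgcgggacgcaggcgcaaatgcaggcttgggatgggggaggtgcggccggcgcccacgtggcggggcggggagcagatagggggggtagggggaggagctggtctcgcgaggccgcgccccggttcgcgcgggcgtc
PRDX3: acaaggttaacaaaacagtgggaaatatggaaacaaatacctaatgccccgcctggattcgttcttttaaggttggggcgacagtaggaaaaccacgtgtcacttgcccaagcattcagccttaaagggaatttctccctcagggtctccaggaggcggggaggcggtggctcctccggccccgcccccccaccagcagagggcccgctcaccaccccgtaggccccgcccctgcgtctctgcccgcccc

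The PRDX4 stretch is 68.4% G and C, and the PRDX3 stretch 60.4%. RefSeq promoter windows (250 bases before to 50 after the start) were at hand for 7 of the 10 genes. SOD1, PRDX1 and PRDX6 had no entry. The half-site AGGTCA, read on both strands (TGACCT on the other), occurred in 2 of the 7, SOD3 and PRDX4, and in 13.9% of all 27303 promoter windows. In PRDX4 it begins 198 bases before the start. The core of the antioxidant response element, TGACNNNGC or GCNNNGTCA, was in 0 of the 7 and in 13.6% of all windows. The CCAAT box (CCAAT or ATTGG) was in 2 of the 7, SOD3 and CAT, against 35.7% of all windows, and the CAT window held 5 copies. TATAAA or its reverse TTTATA was in 0 of the 7 and in 3264 of the 27303 windows. Such matches describe letters only, and show no binding.

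Adjusted for transcript length, the order of the genes was alike in all 6 groups. PRDX1 was the most abundant, at 601 ± 37.1 CPM per kilobase (SD, n = 2) in hyperoxia with vehicle, followed there by PRDX5 at 159 ± 11.2 and SOD1 at 106 ± 4.89 CPM per kilobase. PRDX6 and PRDX3 came next at 81.7 ± 2.64 and 77.6 ± 1.56 CPM per kilobase and exchanged places between groups. PRDX4 followed at 37.9 ± 11.1, CAT at 13.9 ± 1.59 and SOD2 at 7.29 ± 0.49 CPM per kilobase. The position of SOD2 rests on the annotated canonical transcript of 14167 bases, much of it outside the coding part. MMACHC, which overlaps PRDX1, held 62.7% as many counts, and TRMT112, which overlaps PRDX5, held 68.1% as many. Reads of such pairs cannot be told apart, so the order and the shares of the sum describe the counts as deposited. The summed level of the family was 1647 ± 19.6 CPM (SD, n = 2) in normoxia with vehicle, 1531 ± 36.9 (n = 2) without vehicle and 1347 ± 73.5 (n = 3) with ATRA. In hyperoxia it was 1230 ± 26.1, 1261 ± 58.5 and 1062 ± 31.0 CPM in the same order. PRDX1 alone made up 46.2% of the sum in hyperoxia with vehicle and 38.2% with ATRA.

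**Figure D1:**
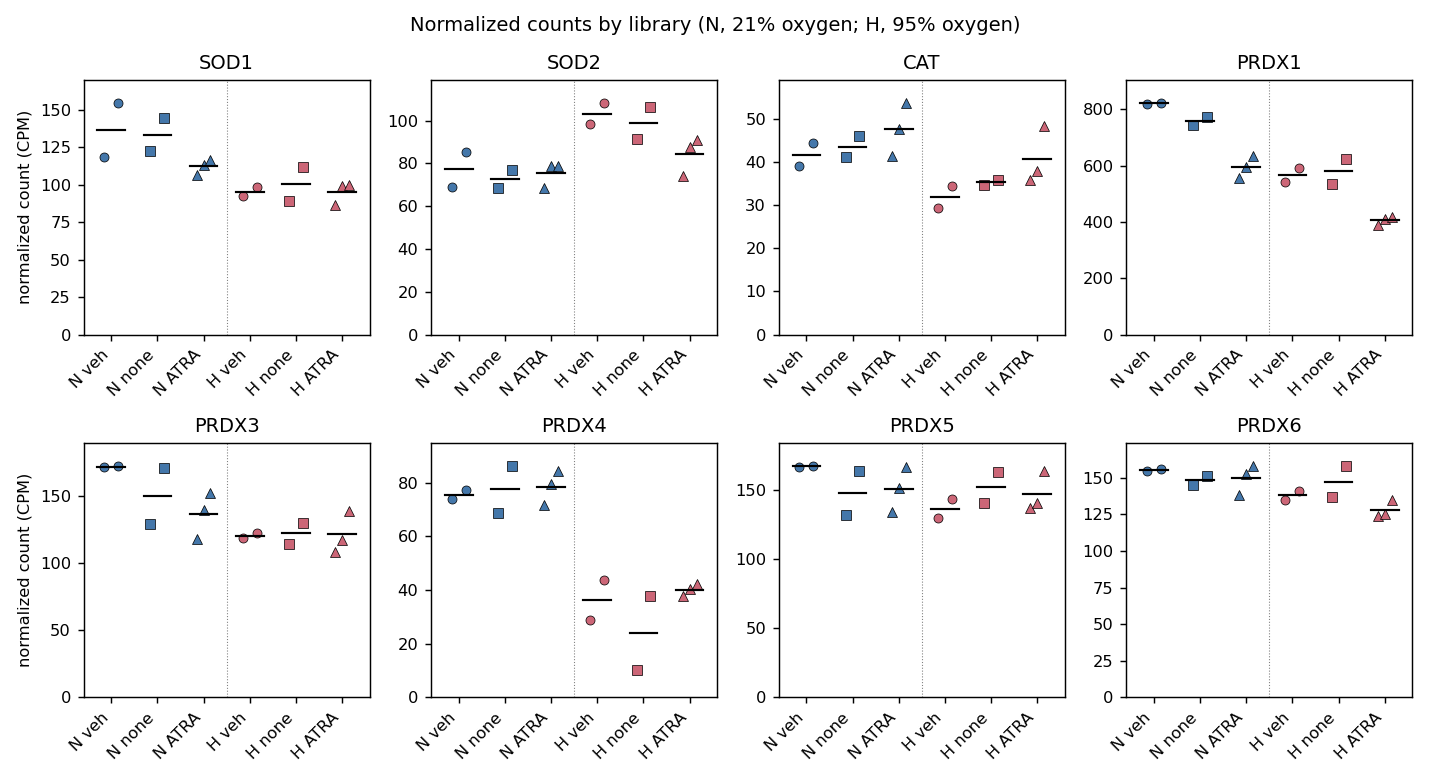
Normalized counts (CPM, linear axes from 0) of the 8 measured genes, a point per library and a bar at the group mean, with normoxia (N) in blue and hyperoxia (H) in red for cells with vehicle (veh), with neither agent (none) and with ATRA. PRDX4 lies at 10.2 to 43.7 CPM in all 7 hyperoxia libraries and at 68.8 to 86.2 CPM in all 7 normoxia libraries, and PRDX1 is lowest in the 3 hyperoxia libraries with ATRA.

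The first question was what hyperoxia did to these transcripts in cells that received vehicle. With edgeR (quasi-likelihood test, p-values adjusted by Benjamini and Hochberg across the 14957 genes tested), 4 of the 8 genes were lower at an adjusted p under 0.05 and 0 were higher, where 17.5% of all genes passed in either direction, 8.81% lower and 8.68% higher. The median log2 fold change of the 8 was -0.45, against 0.01 over all genes tested.

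Among the peroxiredoxins, PRDX4 (chromosome X, 23667493 to 23686397), which works in the endoplasmic reticulum and is also secreted, changed most. It measured 77.2 and 73.8 CPM in normoxia with vehicle and 43.7 and 28.8 CPM in hyperoxia with vehicle. All 7 hyperoxia libraries, with any treatment, lay below all 7 normoxia libraries. PRDX4 was the only one of the 8 with no overlap, 1 of 8, and 13.7% of all genes did not overlap in that split, 7.31% lower and 6.34% higher. With vehicle it was 2.10-fold lower in hyperoxia, a log2 fold change of -1.07 ± 0.20 (SE, 95% interval -1.49 to -0.65, edgeR adjusted p = 0.000676). The call was lost when all 14 libraries shared a fit, with the change at -1.07 and an adjusted p of 0.0934.

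PRDX1 (chromosome 1, 45511051 to 45522890), the main cytosolic peroxiredoxin, measured 822 and 820.5 CPM in normoxia with vehicle. In hyperoxia with vehicle it measured 543 and 593 CPM. Both hyperoxia values were below both normoxia values, and the difference was 1.44-fold, a log2 fold change of -0.53 ± 0.12 (SE, 95% interval -0.79 to -0.28, edgeR adjusted p = 0.00384). Leaving out hyperoxia vehicle library 1 raised the adjusted p to 0.0593 at a log2 fold change of -0.49. PRDX1 shares 2332 bases with MMACHC, a vitamin B12 processing gene, which held 62.7% as many counts and fell by 0.45 on the log2 scale (edgeR adjusted p = 0.0289). The ratio of MMACHC to PRDX1 counts stayed between 0.540 and 0.721 over the 14 libraries. The libraries are stranded, but the strand setting of the counting is not given in the sources used here, so reads of this pair cannot be told apart.

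PRDX3 (chromosome 10, 119167720 to 119178812), the mitochondrial peroxiredoxin reduced by thioredoxin 2, measured 171 and 172 CPM in normoxia with vehicle and 119 and 122 CPM in hyperoxia with vehicle. The groups did not overlap, and the log2 fold change was -0.51 ± 0.16 (SE, 95% interval -0.84 to -0.19, edgeR adjusted p = 0.0247). Leaving out any of the 4 vehicle libraries took the adjusted p to between 0.0951 and 0.142, with the change between -0.56 and -0.52. In a fit of all 14 libraries it was 0.0783.

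PRDX5 and PRDX6 did not pass the main test. PRDX5 (chromosome 11, 64318121 to 64321811), found in mitochondria, peroxisomes and cytosol, measured 168 and 167 CPM in normoxia with vehicle and 129.9 and 144 CPM in hyperoxia with vehicle (log2 fold change -0.29, 95% interval -0.60 to 0.02, edgeR adjusted p = 0.208). In a fit of only these 4 libraries PRDX5 was called lower, at -0.30 (edgeR adjusted p = 0.0409). It shares 476 bases with TRMT112, which held 68.1% as many counts. PRDX6 (chromosome 1, 173477335 to 173488815), which also has phospholipase activity and takes part in surfactant turnover, measured 155 and 156 CPM in normoxia with vehicle and 135 and 141 CPM in hyperoxia with vehicle (-0.17, 95% interval -0.46 to 0.12, edgeR adjusted p = 0.462).

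The fold changes of SOD1 and SOD2 differed in sign, but only that of SOD1 passed the main test. A difference between the genes was not tested. SOD1 (chromosome 21, 31659693 to 31668931) measured 154 and 119 CPM in normoxia with vehicle and 98.3 and 92.2 CPM in hyperoxia with vehicle. The higher normoxia value came from library 1, while both hyperoxia values were below both normoxia values. The log2 fold change was -0.51 ± 0.16 (SE, 95% interval -0.84 to -0.18, edgeR adjusted p = 0.0273). Without normoxia vehicle library 1 the change was -0.35 and the adjusted p 0.345. Without hyperoxia vehicle library 1 or 2 the adjusted p was 0.0950 and 0.181, and in a fit of all 14 libraries 0.0737.

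SOD2 (chromosome 6, 159669069 to 159762281), the mitochondrial enzyme, measured 69.2 and 85.3 CPM in normoxia with vehicle and 108.1 and 98.3 CPM in hyperoxia with vehicle. Both hyperoxia values were above both normoxia values, but the log2 fold change of 0.41 ± 0.17 (SE, 95% interval 0.06 to 0.76) did not pass the test over all genes (edgeR adjusted p = 0.110). It did in a fit of only these 4 libraries (adjusted p = 0.0233) and with the vehicle and no vehicle libraries joined as controls (0.0139). The annotated span of SOD2 overlaps WTAP by 29627 bases and ACAT2, a thiolase of acetyl-CoA metabolism, by 237 bases, and these genes held 52.9% and 81.9% as many counts. ACAT2 fell with vehicle by 0.92 on the log2 scale (edgeR adjusted p = 0.00230). The ratio of ACAT2 to SOD2 counts was 0.387 to 0.775 in hyperoxia and 0.930 to 1.51 in normoxia. CAT (chromosome 11, 34438934 to 34472060) measured 44.5 and 39.0 CPM in normoxia with vehicle and 34.5 and 29.3 CPM in hyperoxia with vehicle (log2 fold change -0.39, 95% interval -0.86 to 0.08, edgeR adjusted p = 0.283).

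**Figure D2:**
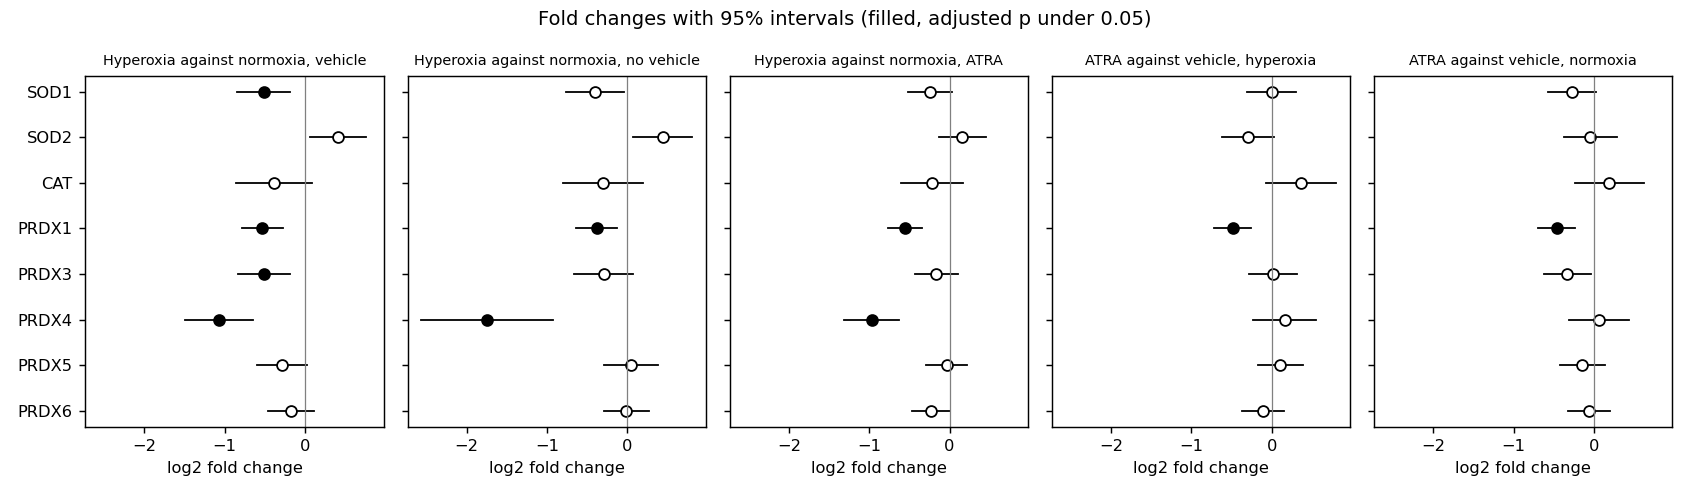
Log2 fold changes of the 8 genes with their 95% intervals in 5 comparisons, from edgeR's quasi-likelihood fits, with filled points where the adjusted p was under 0.05. PRDX4 is filled in the 3 oxygen comparisons, PRDX1 in all 5, and SOD1 and PRDX3 only with vehicle, where the difference between panels was not itself tested except as given in the text.

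Hyperoxia was next compared with normoxia in cells given ATRA. PRDX1 and PRDX4 were lower, 2 of the 8 genes, and 0 were higher, where 22.7% of all genes passed, 11.3% lower and 11.4% higher. The median log2 fold change was -0.22, against 0.01 over all genes. PRDX4 measured 71.7, 84.3 and 79.6 CPM in normoxia with ATRA and 40.6, 42.1 and 37.8 CPM in hyperoxia with ATRA. The 3 hyperoxia values were close together and well under the normoxia values, 1.96-fold lower on the fitted scale (log2 fold change -0.97 ± 0.17, edgeR adjusted p = 0.000199). PRDX1 measured 556, 635 and 597 CPM in normoxia with ATRA and 390.0, 409 and 416 CPM in hyperoxia with ATRA. Again the groups did not overlap, and PRDX1 was 1.47-fold lower (-0.56 ± 0.10, edgeR adjusted p = 0.000348). Both calls held when any of the 6 libraries was left out. The overlapping MMACHC fell by 0.58 here (edgeR adjusted p = 0.000910).

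The other genes in that comparison were not called. SOD1 had a log2 fold change of -0.24 (95% interval -0.51 to 0.03) and PRDX3 one of -0.17 (-0.43 to 0.10). SOD2 was at 0.16 (-0.13 to 0.45), CAT at -0.22 (-0.60 to 0.17), PRDX5 at -0.03 (-0.29 to 0.22) and PRDX6 at -0.23 (-0.46 to 0.01). With ATRA and vehicle libraries joined and ATRA as a covariate, SOD1 at -0.37 and PRDX3 at -0.33 were also called (edgeR adjusted p = 0.00937 and 0.0213).

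In cells that received neither agent, compared in the fit of 14 libraries and 15339 genes, PRDX1 and PRDX4 were lower in hyperoxia, 2 of the 8 genes, and 0 were higher. Of all genes 15.2% passed, 7.58% lower and 7.57% higher. The median log2 fold change of the 8 was -0.30, beside -0.10 over all genes tested. PRDX4 measured 86.2 and 68.8 CPM in normoxia and 10.2 and 37.8 CPM in hyperoxia. The 10.2 CPM, 51 counts, belong to the library that stood apart. The fitted log2 fold change was -1.74 ± 0.39 (SE, 95% interval -2.57 to -0.92, edgeR adjusted p = 0.00651), and without that library it was -1.04 (adjusted p = 0.0109). Without hyperoxia library 2 it was -2.98, and without normoxia library 1 the adjusted p was 0.0546.

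PRDX1 in the same cells measured 743 and 771 CPM in normoxia and 624 and 536 CPM in hyperoxia. The fall was 1.30-fold (log2 fold change -0.38 ± 0.12, edgeR adjusted p = 0.0400). It was called in 1 of 4 fits that left out a library, the one without hyperoxia library 1, and the adjusted p reached 0.0841, 0.0850 and 0.109 without hyperoxia library 2 and normoxia libraries 1 and 2. Of 6 other fits of these libraries, 2 called PRDX1. The call was lost with library totals (edgeR adjusted p = 0.0734), without a filter (0.0565), with sets of library numbers as a block (0.0893) and in a fit of only those groups (0.344). PRDX4 was lost only in the last (0.307). SOD2 measured 77.0 and 68.4 CPM in normoxia and 91.3 and 106.2 CPM in hyperoxia, a log2 fold change of 0.44 (95% interval 0.07 to 0.81, edgeR adjusted p = 0.103). SOD1 measured 145 and 122 CPM in normoxia and 111.7 and 88.9 CPM in hyperoxia (-0.41, 95% interval -0.77 to -0.05, edgeR adjusted p = 0.119), and with the block it was called lower at -0.54 (0.0435). CAT, PRDX3, PRDX5 and PRDX6 had log2 fold changes of -0.30, -0.29, 0.05 and -0.01.

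Whether the oxygen effect differed between cells with vehicle and cells with neither agent was tested directly. By edgeR 0 of the 8 genes passed, as 0.00652% of all genes did, and 0 passed at an unadjusted p under 0.05 or by DESeq2. PRDX4 had the widest interval, with a difference of 0.68 on the log2 scale (95% interval -0.45 to 1.81, edgeR adjusted p = 0.877). That value rested on the library that stood apart, being -0.03 without it and 1.89 (adjusted p = 0.000515) without its partner, hyperoxia library 2.

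ATRA was then compared with vehicle at each oxygen level. PRDX1 was the only one of the 8 genes called in either comparison. In hyperoxia 1 of 8 was lower and 0 higher, where 2.21% of all genes passed, 0.695% lower and 1.52% higher. In normoxia it was again 1 of 8 lower, where 1.25% of all genes passed, 0.435% lower and 0.816% higher. The median log2 fold changes of the 8 were 0.01 and -0.10, beside 0.00 over all genes in both.

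PRDX1 in hyperoxia was 390.0, 409 and 416 CPM with ATRA against the 543 and 593 CPM with vehicle given above, 1.40-fold lower (log2 fold change -0.49 ± 0.11, 95% interval -0.72 to -0.26, edgeR adjusted p = 0.0193). In normoxia the values of 556 to 635 CPM with ATRA stood against 822 and 820.5 CPM, 1.38-fold lower (-0.46 ± 0.11, 95% interval -0.69 to -0.23, edgeR adjusted p = 0.0385). The libraries with neither agent, which the test did not use, measured 536 to 624 CPM in hyperoxia and 743 to 771 CPM in normoxia, so every ATRA library lay below every library without ATRA at its oxygen level. PRDX1 shared that with SOD2 (lower) and CAT (higher) in hyperoxia, 3 of 8 genes where 12.1% of all genes did not overlap (5.45% lower, 6.65% higher). It shared it with SOD1 (lower) in normoxia, 2 of 8 where 12.7% did not overlap (6.38% lower, 6.32% higher). The nearest ATRA and other libraries in hyperoxia were at 90.9 and 91.3 CPM for SOD2 and 35.89 and 35.83 CPM for CAT. For PRDX1 they were at 416 and 536 CPM. In normoxia they were at 117 and 119 CPM for SOD1 and 635 and 743 CPM for PRDX1.

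The order of PRDX1 levels over the 6 groups ran from 821 ± 1.08 CPM (SD, n = 2) in normoxia with vehicle and 757 ± 19.8 (n = 2) with neither agent to 596 ± 39.4 (n = 3) in normoxia with ATRA. Hyperoxia followed with 580 ± 62.4 (n = 2) with neither agent, 568 ± 35.1 (n = 2) with vehicle and 405 ± 13.7 CPM (n = 3) with ATRA. The ranges of normoxia with ATRA and of both hyperoxia groups without ATRA overlapped.

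The ATRA calls of PRDX1 were sensitive to single libraries and, in normoxia, to the fit. In hyperoxia the adjusted p was 0.0677 without ATRA library 1, 0.107 without vehicle library 1 and 0.334 without vehicle library 2. In normoxia it was 0.163 and 0.0667 without ATRA library 1 or 3, and 0.339 and 0.312 without vehicle library 1 or 2. The normoxia call was also lost with sets of library numbers as a block (edgeR adjusted p = 0.0789), in a fit of only those groups (0.116) and with all 14 libraries (0.0873), while the hyperoxia call held in all 8 other fits. With a library left out, the log2 fold change stayed between -0.56 and -0.41. MMACHC, which overlaps PRDX1, fell by 0.57 in hyperoxia (edgeR adjusted p = 0.0166) and had a log2 fold change of -0.44 in normoxia (0.116).

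None of the other genes passed for ATRA. In hyperoxia SOD2 measured 74.3, 87.6 and 90.9 CPM with ATRA against 108.1 and 98.3 CPM with vehicle, a log2 fold change of -0.30 (95% interval -0.61 to 0.02, edgeR adjusted p = 0.420). CAT measured 48.3, 37.9 and 35.9 CPM with ATRA against 34.5 and 29.3 CPM, a change of 0.36 (-0.07 to 0.80, edgeR adjusted p = 0.469). PRDX4, the gene with AGGTCA in its promoter window, had changes of 0.16 (-0.24 to 0.56) in hyperoxia and 0.06 (-0.32 to 0.43) in normoxia. In normoxia PRDX3 measured 118, 139.8 and 152 CPM with ATRA against 171 and 172 CPM (-0.33, -0.63 to -0.04, edgeR adjusted p = 0.468), and SOD1 117, 113 and 107 CPM against 154 and 119 CPM (-0.28, -0.58 to 0.02, edgeR adjusted p = 0.633). The remaining changes lay between -0.15 and 0.19.

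The test of whether the ATRA effect differed between hyperoxia and normoxia called 0 of the 8 genes by edgeR, where 0.140% of all genes passed (0.100% higher, 0.0401% lower), and 0 at an unadjusted p under 0.05 or by DESeq2. For PRDX1 the difference was -0.03 on the log2 scale (95% interval -0.36 to 0.30). For PRDX3 it was 0.35 (-0.07 to 0.77), and for SOD2 -0.25 (-0.71 to 0.21). The same test asks whether the oxygen effect differed between vehicle and ATRA, so the calls of SOD1 and PRDX3 with vehicle alone are not shown to be particular to vehicle.

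**Figure D3:**
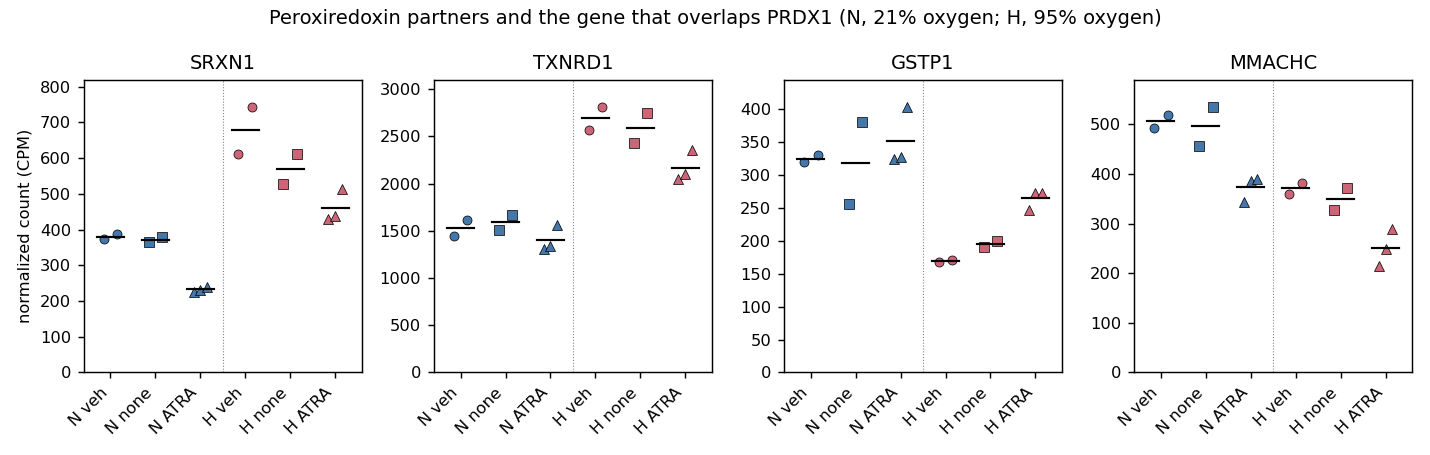
Normalized counts (CPM, linear axes from 0) of 3 genes that act with peroxiredoxins and of MMACHC, which overlaps PRDX1, a point per library and a bar at the group mean, with groups as in the plot of the 8 genes. SRXN1 and TXNRD1 are higher and GSTP1 lower in hyperoxia, and SRXN1 is lowest in normoxia with ATRA at 233 CPM on average.

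The enzymes that recycle peroxiredoxins and other thiols moved in both directions in hyperoxia. Of 16 genes of peroxiredoxin and thiol recycling, 15 were tested. With vehicle 4 rose, 1 fell and 10 were not called (median log2 fold change 0.22), where 17.5% of all genes passed. SRXN1, the sulfiredoxin that repairs overoxidised peroxiredoxins, measured 380 ± 8.92 CPM in normoxia and 678 ± 94.3 CPM in hyperoxia (SD, n = 2 each), a rise of 0.84 (edgeR adjusted p = 0.000119). TXNRD1, the cytosolic thioredoxin reductase, rose by 0.81 (0.000114), and GSTP1, a glutathione transferase that helps PRDX6 through its cycle, fell by 0.94 (3.70e-05). With ATRA 5 rose and 2 fell in hyperoxia, where 22.7% of all genes passed. These calls were led by SESN2 at 2.53, SRXN1 at 0.98 and SESN1 at 1.67, the sestrins being stress-induced inhibitors of mTORC1 signalling. With neither agent 4 rose and 3 fell, where 15.2% of all genes passed, led by GLRX5 at -1.51, TXNRD1 at 0.70 and GSR, glutathione reductase, at -0.55.

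Between ATRA and vehicle, SRXN1 fell in both settings, like PRDX1. It was at 233 ± 7.05 CPM (SD, n = 3) with ATRA in normoxia, a log2 fold change of -0.71 (edgeR adjusted p = 0.00274), and the only one of the 15 recycling genes called there. In hyperoxia it was at 460 ± 45.7 CPM (n = 3), a change of -0.56 (edgeR adjusted p = 0.0128), while GSTP1 rose by 0.64 (0.00613), and the other 13 were not called. Of all genes 1.25% passed for ATRA in normoxia and 2.21% in hyperoxia.

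Of 4 genes of copper handling (CCS, the chaperone that loads SOD1, with ATOX1, ATP7A and the importer SLC31A1, which serve copper delivery more widely), 0 passed the edgeR test in any of the 5 comparisons of groups. Of 13 genes of peroxisome import, the route by which CAT reaches its compartment, 1 rose in hyperoxia with vehicle and 1 with ATRA, in both PEX26 (0.87 and 0.73), and 0 with neither agent. The shares of all genes called were 17.5%, 22.7% and 15.2%. Of 8 glutathione peroxidases, which also reduce hydrogen peroxide, 5 were tested. In hyperoxia 1 rose and 2 fell with vehicle, where 17.5% of all genes passed, 2 rose and 2 fell with ATRA, where 22.7% did, and 1 rose and 1 fell with neither agent, where 15.2% did. GPX1 rose by 3.12, 3.07 and 3.43 in these 3 comparisons, and GPX2 fell by 1.38, 0.86 and 0.90. GPX8 fell by 1.09 with vehicle and 0.78 with ATRA. Of 17 enzymes and partners that make superoxide or peroxide, 7 were tested. In hyperoxia 1 rose and 1 fell with vehicle, 1 rose with ATRA and 1 with neither agent, beside the same 3 shares of all genes. XDH, xanthine dehydrogenase, rose by 1.85 and CYBA, the p22phox subunit of NADPH oxidases, fell by 0.89 in hyperoxia with vehicle. With ATRA in hyperoxia CYBA rose by 0.84 and GPX2 by 0.59 over vehicle, where 2.21% of all genes passed.

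Across the 14 libraries the genes whose log2 CPM followed each enzyme most closely were listed as a description. All points share the oxygen and ATRA groups and the library depth. For PRDX1 these were HPGD (Pearson r = 0.951), its overlapping neighbour MMACHC (0.937) and ME1, malic enzyme (0.936). For SOD1 they were PCDH9 (0.947), TARS (0.933) and HSPA8 (0.932), for SOD2 MXD1 (0.912), ZNF106 (0.911) and ARHGAP5 (0.901), and for CAT TMEM248 (0.892), OIP5-AS1 (0.877) and CHP1 (0.862). Among the 8 genes themselves, PRDX1 ran closest to SOD1 (r = 0.763), and SOD2 ran opposite to CAT (-0.752) and SOD1 (-0.694).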

How the data were processed

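The authors trimmed reads with Trimmomatic (0.38, reads under 50 nt discarded), used HISAT2 for alignment to hg38 and obtained a count per gene with HTSeq. The deposited counts of 15 libraries are raw; summary rows (48.6% to 55.3% of reads without a feature) were left out. The annotation and strand setting are not given in the sources used here.

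Counts were tested with edgeR (4.0.16, R 4.3.3): TMM scaling, filterByExpr (minimum count 10, total 15), glmQLFit and glmQLFTest, Benjamini-Hochberg adjusted p under 0.05. The vehicle and ATRA libraries (10, in 4 groups) shared a fit, and all 14 grouped libraries (6 groups) gave the comparisons of cells with neither agent. Levels are TMM-normalized CPM over the 14 libraries, and per kilobase values use GENCODE 44 canonical transcripts. Standard errors are the log2 fold change over the root of F. DESeq2 (1.42.0), other scalings, no filter, other sets of libraries and leaving out each library were alternatives. No pair of replicates agreed within counting noise (chi-square per degree of freedom 3.89 to 30.6). The statistics were tested on simulated data, with 200 of 14957 genes changed in the comparison of hyperoxia with normoxia under vehicle. Recovery was 5.97% of 1.5-fold, 38.8% of 2-fold and 71.2% of 4-fold changes, and 6.10% of calls were false. The simulation changed far fewer genes than the 17.5% called in that comparison of the data, so these rates need not hold there. A gene not called is still not shown to be unchanged. Positions and promoters are from RefSeq (GRCh38.p14). All 10 genes were to be named, other genes only from lists (the 3 called with the smallest p per list and comparison), as neighbours on the genome, or as the 3 most correlated. The genes and lists were chosen with earlier results of these data known. Floors for counts cover counting error only. Intervals of log2 fold changes were built from the standard errors above, and so also include the spread between these libraries.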

Additional observations from a re-analysis of the deposited data

Results flagged for a closer look

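A library without a group, whose title and treatment label disagree, was used in no comparison, and its level of 2 of the 10 genes lay above the 4 normoxia libraries without ATRA. SOD2 was at 101 CPM in it, with 68.5 to 85.5 CPM in those libraries, and lay within the 74.4 to 108 CPM of the 7 hyperoxia libraries. PRDX5 was at 171 CPM, with 132 to 168 CPM in the 4 normoxia libraries and 130 to 164 CPM in the hyperoxia libraries. SOD1, CAT, PRDX1, PRDX4 and PRDX6 lay below those 4 normoxia libraries, which spanned 119 to 155, 39.1 to 46.2, 745 to 824, 69.0 to 86.4 and 145 to 157 CPM, and PRDX3 lay within their range. All are single values with no replicate. The share of all genes in that library outside the range of those 4 normoxia libraries was not computed, so these counts of genes have no background.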

How the results depend on the processing

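Of 744 values of single genes under an alternative or with a library left out, 707 kept their sign and call or were called in neither setting, 30 lost the call, 7 gained it and 0 called values changed sign; 37 values called in neither setting changed sign. Of all genes, hyperoxia against normoxia with vehicle called 2616 of 14957 as reported and 4665 of 14143 in a fit of only those groups. It called 3571 of 14720 with joined controls and 1420 of 15339 in a fit of all 14 libraries. The number of the 8 genes called moved as follows. With vehicle, hyperoxia against normoxia gave 4 as reported, 6 in a fit of only those groups (SOD2 higher and PRDX5 lower gained), 5 with joined controls (SOD2 gained), 1 in a fit of all 14 libraries, and 1 to 3 with a library left out. With ATRA it gave 2 (3391 of all 14957 genes), and 4 with ATRA as a covariate (4713 of all 13538). With neither agent it gave 2, and 1 with library totals, 1 without a filter, 0 in a fit of only those groups and 0 to 2 with a library left out. With the set of library numbers as a block it gave 2 again, SOD1 and PRDX4 in place of PRDX1 and PRDX4. Of all 15339 genes with neither agent, 2324 were called as reported, 2312 with library totals and 1808 with the block. Without a filter 2799 of 25551 were called, and in a fit of only those groups 58 of 13833. ATRA against vehicle gave 1 in hyperoxia (0 to 1 with a library left out), and 1 in normoxia, where it was 0 with the set of library numbers as a block, 0 in a fit of only those groups, 0 with all 14 libraries and 0 to 1 with a library left out. The difference between oxygen effects gave 0, and 0 to 1 with a library left out. Of all genes, ATRA against vehicle in normoxia called 187 of 14957 as reported and 175 of 14957 with the block. It called 206 of 14009 in a fit of only those groups and 70 of 15339 with all 14 libraries. The cause of these moves was not tested. Where an arm was left with 1 library, it was assumed to vary like the other groups.

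Counts over all genes moved by over 1.5 times in these cases. Hyperoxia against normoxia with vehicle went from 2616 to 4665 (only those groups), 1420 (all 14 libraries), 4713 (ATRA as a covariate) and 1386 to 1523 (a library left out), and with ATRA from 3391 to 1975 (all 14 libraries). With neither agent it went from 2324 to 58 (only those groups) and 969 to 7364 (a library left out, highest without hyperoxia library 2). ATRA against vehicle in hyperoxia went from 331 to 522 (no filter), 116 (all 14 libraries), 182 (joined controls) and 83 to 449 (a library left out). In normoxia it went from 187 to 286 (DESeq2), 300 (no filter), 70 (all 14 libraries) and 56 to 165 (a library left out). The difference between ATRA effects went from 21 to 96 (DESeq2), 91 (no filter), 4 (all 14 libraries), 5 (joined controls) and 4 to 28 (a library left out). The difference between oxygen effects went from 1 to 2 (DESeq2), 25 (no filter) and 0 to 3759 (a library left out).

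No paired analysis was possible because each library carries its own number in the labels and no number is shared between groups. The block used sets of numbers inferred from the numbering alone, and does not pair single libraries. PRDX2 and SOD3 did not pass the filter on low counts and were not compared.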

Other observations

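In the library without a group PRDX4 was at 35.7 CPM, where the hyperoxia libraries spanned 10.2 to 43.8 CPM and the normoxia libraries 69.0 to 86.4 CPM on the scale of 15 libraries. PRDX1 was at 612 CPM, between 391 and 626 CPM in hyperoxia and 557 to 824 CPM in normoxia. SOD1 was at 92.3, CAT at 33.9, PRDX3 at 135 and PRDX6 at 132 CPM, and SOD3 and PRDX2 had 0 counts. Its treatment label names adipogenic differentiation. Of 5 adipocyte markers, ADIPOQ, LEP, PLIN1 and FABP4 had 0 counts in it, and CIDEC had 3.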
